A study of Homo sapiens with 18 samples.

Results

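The enzymes that carry acetyl units to squalene were followed in A549 cells, an epithelial line from a human lung adenocarcinoma, after exposure to Ludox® colloidal amorphous silica nanoparticles (NPs). They are ACAT2, HMGCS1, MVK, PMVK, MVD, IDI1, FDPS, GGPS1 and FDFT1, that is 9 genes of the 30484 gene names on the array, read by 12 of its 41000 probes that are not controls. The genes were chosen by name, as steps of 1 pathway, after the ratios of treated over control arrays in this series had been seen. Those ratios are therefore given as a description, and nothing is supported with them.

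The data came from 18 one-colour arrays in 6 groups of 3 biological replicates, lettered A, B and C. Cells were incubated for 2 h in serum-free medium with 0.02 mg/mL of SM30 NPs, labelled 9 nm, and left for 3 h, or with the same mass of AS30 NPs, labelled 18 nm, and left for 3 h or 22 h in complete medium with serum. Each of the 3 exposures had its own control group, taken through the same steps with no NPs, so serum withdrawal and its return were shared by treated and control cells. A549 is 1 cell line, kept as a tumour line, and it stands in for lung epithelium with that limit. All 5 epithelial markers examined (EPCAM, CDH1, KRT8, KRT18 and KRT19) were well above background on all 18 arrays. Of 4 markers of alveolar type II cells 3 were, and SFTPB was so on 1 array. The leukocyte marker PTPRC was well above background on no array, although CD3E and CD14 were on all 18. Of 3 endothelial and 3 fibroblast markers none was on all 18, but the fibroblast marker COL1A1 was on 15 and the endothelial marker CDH5 on 1. The others were on none.

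Between 66.0% and 83.7% of the spots of an array were scored as positive and significant. The arrays lay on 5 slides read in 6 scan runs, and the slides of the SM30 set held no array of the AS30 sets. In the SM30 set controls A, B and C shared a slide with treated A, while treated B and C lay on another slide with no control. SM30 control A was read in a scan run of its own. The AS30 treated and control arrays at 3 h lay on different slides. The 22 h treated arrays shared their slide with control C only.

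Cells make every isoprenoid from acetyl-CoA by way of mevalonate, which is phosphorylated and decarboxylated to isopentenyl diphosphate. Chains built from that unit feed sterols, ubiquinone, dolichol and the lipid anchors of small GTPases, and squalene is the first product committed to sterols. In most cells transcription of the route is set by the SREBP factors, which leave the endoplasmic reticulum when its membrane is poor in cholesterol. They bind promoters together with NF-Y and SP1.

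Promoter sequences were found for 7 of the 9 genes in RefSeq (GRCh38.p14), not for ACAT2 or FDFT1. The 250 bases upstream of the start are shown for these 7 because their genes separated at 22 h into those with large and those with small differences. For genes with several starts the window with most NF-Y boxes is shown. Capitals mark CCAAT or its complement ATTGG, the NF-Y box, on either strand.
HMGCS1 (chr5:43313413-43313662, minus strand): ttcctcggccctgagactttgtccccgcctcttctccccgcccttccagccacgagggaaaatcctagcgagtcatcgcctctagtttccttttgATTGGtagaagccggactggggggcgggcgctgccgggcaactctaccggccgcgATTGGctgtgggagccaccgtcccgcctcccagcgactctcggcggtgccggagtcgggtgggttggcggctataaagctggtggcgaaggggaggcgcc
MVK (chr12:109573544-109573793, plus strand): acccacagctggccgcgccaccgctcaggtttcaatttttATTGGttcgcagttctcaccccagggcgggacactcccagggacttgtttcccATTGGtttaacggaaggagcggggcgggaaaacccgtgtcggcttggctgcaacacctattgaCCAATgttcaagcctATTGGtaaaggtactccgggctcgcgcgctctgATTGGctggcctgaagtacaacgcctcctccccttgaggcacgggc
PMVK (chr1:154936720-154936969, minus strand): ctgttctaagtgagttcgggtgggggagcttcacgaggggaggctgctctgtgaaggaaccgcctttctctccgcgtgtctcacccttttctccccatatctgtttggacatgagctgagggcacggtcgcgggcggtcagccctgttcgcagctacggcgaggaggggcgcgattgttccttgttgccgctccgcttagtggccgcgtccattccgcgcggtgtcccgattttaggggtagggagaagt
MVD (chr16:88663092-88663341, minus strand): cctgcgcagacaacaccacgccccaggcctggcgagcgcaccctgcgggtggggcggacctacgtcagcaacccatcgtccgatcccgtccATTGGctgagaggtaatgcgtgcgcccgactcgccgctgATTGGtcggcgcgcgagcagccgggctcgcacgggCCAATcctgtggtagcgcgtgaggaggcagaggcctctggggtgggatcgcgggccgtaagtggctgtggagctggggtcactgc
IDI1 (chr10:1048887-1049136, minus strand): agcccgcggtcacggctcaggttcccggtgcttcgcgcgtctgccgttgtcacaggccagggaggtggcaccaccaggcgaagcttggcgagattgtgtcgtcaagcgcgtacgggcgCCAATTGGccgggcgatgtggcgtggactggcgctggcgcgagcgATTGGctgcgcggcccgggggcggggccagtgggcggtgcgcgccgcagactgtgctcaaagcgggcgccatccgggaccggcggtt
FDPS (chr1:155308616-155308865, plus strand): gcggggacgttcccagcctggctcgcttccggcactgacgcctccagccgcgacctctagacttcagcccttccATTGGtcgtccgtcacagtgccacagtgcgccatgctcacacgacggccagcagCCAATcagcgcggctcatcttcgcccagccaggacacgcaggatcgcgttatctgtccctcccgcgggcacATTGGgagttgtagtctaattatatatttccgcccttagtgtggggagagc
GGPS1 (chr1:235328320-235328569, plus strand): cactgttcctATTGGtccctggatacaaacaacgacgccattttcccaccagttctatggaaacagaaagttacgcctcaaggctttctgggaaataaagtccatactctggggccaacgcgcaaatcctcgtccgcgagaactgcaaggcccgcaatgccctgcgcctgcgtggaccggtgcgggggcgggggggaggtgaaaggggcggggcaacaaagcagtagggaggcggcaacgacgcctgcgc
In the full windows of 300 bases, from 250 before to 50 after the start, the MVK window held 5 NF-Y boxes, those of MVD, IDI1 and FDPS 3 each, and that of HMGCS1 2. The shown GGPS1 window held 1 and that of PMVK none. In IDI1 the leftmost 2 boxes overlap. Of all 35116 RefSeq windows of that length 34.6% held at least 1 such box, 10.8% at least 2 and 3.26% at least 3. IDI1 and GGPS1 have 3 listed windows each and HMGCS1 2, which gave them more chances of a match. The other IDI1 windows held 2 and 0, the other HMGCS1 window 0 and the other GGPS1 windows 0 and 0. The numbers of boxes in the shown windows thus depend on which start is taken. The letters TCACNCCAC, a form of the sterol regulatory element, were in none of the 12 listed windows of these genes and in 1.13% of all windows. The SP1 box GGGCGG was in 11 of the 12 and in 45.0% of all. These matches describe letters and show no binding.

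At 22 h after AS30, 6 of the 9 genes passed as higher in treated cells, between 2.34-fold for an MVK probe and 5.63-fold for MVD. FDFT1 was at 2.46-fold, PMVK at 0.97-fold and GGPS1 at 1.20-fold of the control, and these 3 did not pass. Each sample was a culture measured in bulk, so more RNA per cell and more cells that hold the RNA cannot be told apart. Of the 12, 9 probes were past the threshold of 0.05 on limma's adjusted p, all of them higher, among 3.58% of all 28155 probes tested, or 2.54% counted as higher alone. At an unadjusted p under 0.05 there were 11 of the 12 and 22.9% of all probes. The median log2 difference of the 12 probes was 1.67, and that of all probes -0.0047. Since the choice of the genes used this contrast, nothing is read from these counts. The call did not hold in every setting. With slide or scan run as a fixed block 0 of the 12 probes passed, with 10 at an unadjusted p under 0.05. Without pair A 0 passed, again with 10 at an unadjusted p under 0.05, and without pair C 2 passed. A probe's log2 signals can be set against each other between arrays, not against those of another probe.

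**Figure D1:**
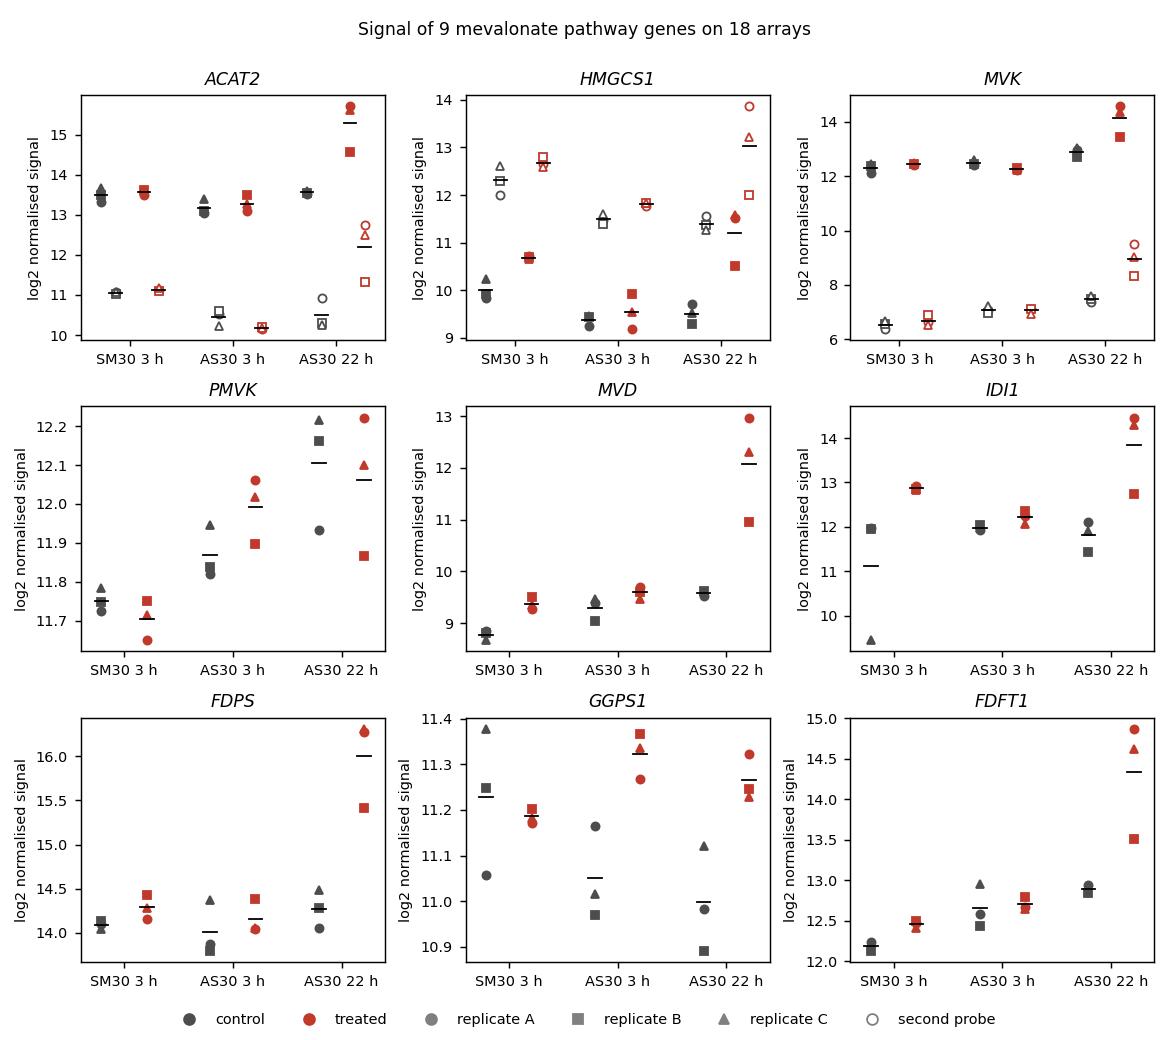
Normalised log2 signal of the 12 probes on the 18 arrays, in 1 panel per gene with its own vertical scale, control arrays in grey and treated arrays in red, with the replicate letter as marker shape and the group mean as a bar (open symbols are the second probe of ACAT2, HMGCS1 and MVK). The 22 h treated arrays lie above their controls in every panel except PMVK, and SM30 control C of IDI1 stands alone at 9.45.

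The pathway begins with ACAT2, the cytosolic thiolase that joins a pair of acetyl-CoA molecules. Its first probe (A_23_P31135, hg18 chr6:160119804-160119863) read 13.52, 13.54 and 13.60 in the 22 h controls A, B and C and 15.70, 14.57 and 15.60 in treated A, B and C on the log2 scale. Its second probe (A_23_P383835, hg18 chr6:160119889-160119948), which starts 85 bases further on, read 10.92, 10.29 and 10.25 in the controls and 12.74, 11.33 and 12.50 after treatment. No treated array overlapped a control on either probe, and the fitted log2 differences were 1.74 ± 0.21 and 1.70 ± 0.20 (SE, 3 ratios each). At 3 h the probes gave 0.08 and 0.07 after SM30. After AS30 they gave 0.10 ± 0.21 and -0.28 ± 0.20, so the probes of this gene differed in sign there.

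HMGCS1, the cytosolic synthase that makes HMG-CoA, was read by a pair of probes 964 bases apart. At 22 h the first (A_23_P133263, hg18 chr5:43326838-43326897) read 9.70, 9.30 and 9.52 in controls and 11.52, 10.50 and 11.58 in treated cells. The second (A_24_P63522, hg18 chr5:43325874-43325933) read 11.55, 11.36 and 11.27 in controls and 13.86, 12.00 and 13.22 in treated cells. The groups did not overlap on either, and the log2 differences were 1.69 ± 0.19 and 1.64 ± 0.28 (SE). HMGCS1 also separated by SM30 at 3 h on its first probe, where treated arrays A, B and C read 10.71, 10.69 and 10.65 and controls 9.83, 9.92 and 10.24. That difference was 0.68 ± 0.19 and did not pass. The second probe gave 0.38 ± 0.28 there, with control C at 12.62 inside the treated range of 12.59 to 12.80.

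Mevalonate kinase, MVK, makes the first phosphorylation. Its first probe (A_23_P105592, hg18 chr12:108519324-108519383) read 12.97, 12.70 and 13.04 in the 22 h controls and 14.56, 13.46 and 14.36 in treated cells, a log2 difference of 1.22 ± 0.16 (SE). Its second probe (A_24_P372901, hg18 chr12:108508230-108508289), 11094 bases away, read 7.38, 7.47 and 7.60 against 9.50, 8.32 and 9.03, a difference of 1.46 ± 0.22. Again no arrays overlapped. At 3 h after AS30 the first probe was lower in all 3 treated arrays, 12.22 to 12.30 against 12.42 to 12.58 in controls, a log2 difference of -0.24 ± 0.16 that did not pass. The second probe gave -0.03 ± 0.22 there.

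PMVK adds the second phosphate. Its probe (A_23_P114774, hg18 chr1:153164022-153164081) read 11.93, 12.16 and 12.22 in the 22 h controls and 12.22, 11.87 and 12.10 in treated cells, and these overlapped. The log2 difference was -0.04 ± 0.13 (SE, 95% interval -0.33 to 0.25), an interval that leaves out the values of both MVK probes. Over the 18 arrays PMVK moved between 11.65 and 12.22.

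MVD, which decarboxylates the diphosphate to isopentenyl diphosphate, had the largest difference of the 12 probes at 22 h. Its probe (A_23_P152125, hg18 chr16:87246486-87247239) is listed over 754 bases, against 60 for each of the other 11. Controls A, B and C read 9.53, 9.62 and 9.59 and treated A, B and C 12.97, 10.95 and 12.30. The control arrays lay within 0.09 of each other while the treated arrays spread over 2.02. The log2 difference was 2.49 ± 0.33 (SE), and 0.110% of all probes had a larger one. At 3 h after SM30 MVD read 9.28, 9.51 and 9.35 against 8.85, 8.81 and 8.67 in controls. Those arrays did not overlap either, and the difference of 0.60 ± 0.33 did not pass.

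IDI1 isomerises the unit to dimethylallyl diphosphate and so opens chain building. In the 22 h set its probe (A_24_P103886, hg18 chr10:1076619-1076678) read 12.10, 11.43 and 11.91 in controls and 14.46, 12.74 and 14.30 in treated cells, a log2 difference of 2.03 ± 0.44 (SE) that passed, and did so in 6 of 20 alternative settings. In the SM30 set the treated arrays read 12.92, 12.85 and 12.83 and the controls 11.98, 11.94 and 9.45. Control C was low before normalisation too, with a processed signal of 820.2 against 10542 and 7280 in controls A and B, and its spot was well above background and not marked as an outlier. This single array set the size of the SM30 value, which was 1.74 ± 0.44 over 3 ratios and 0.92 without pair C. Of the other 11 probes only those of MVD and FDPS read lower on that array than on controls A and B, by 0.14 and 0.063. A probe for the neighbouring isoform IDI2 did not pass the filter on dim spots.

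FDPS joins the units into farnesyl diphosphate, where the routes to sterols and to other isoprenoids part. Its probe (A_24_P114183, hg18 chr1:153556893-153556952) read 14.06, 14.28 and 14.48 in the 22 h controls and 16.27, 15.41 and 16.31 in treated cells, a log2 difference of 1.72 ± 0.22 (SE). No spot of it was saturated. RefSeq lists 10 pseudogenes of FDPS, and the array's probes named FDPSL4 and FDPSP2 followed the pathway's mean over the arrays with r of 0.95 and 0.94. How far these probes read 1 RNA was not tested.

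At the branch point GGPS1 extends farnesyl to geranylgeranyl diphosphate, which anchors Rab proteins and leaves the sterol route. Its probe (A_23_P52189, hg18 chr1:233572812-233572871) read 10.98, 10.89 and 11.12 in the 22 h controls and 11.32, 11.25 and 11.23 in treated cells. The arrays did not overlap, but the log2 difference of 0.27 ± 0.12 (SE, 95% interval 0.00081 to 0.53) did not pass. At 3 h after AS30 the value was the same size, 0.27 ± 0.12, with treated arrays of 11.27 to 11.37 and controls of 10.97 to 11.16. Neither value passed.

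FDFT1, squalene synthase, is the first step committed to sterols. Its probe (A_23_P71319) read 12.93 and 12.85 in the 22 h controls A and B and 14.87, 13.51 and 14.62 in treated cells. The spot on control C was marked as an outlier by the scanner software, so the fitted log2 difference of 1.30 ± 0.29 (SE) rests on pairs A and B. It did not pass, at 2.46-fold, and with that spot kept the value was 1.25 and passed. It passed in 7 of 20 alternative settings.

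**Figure D2:**
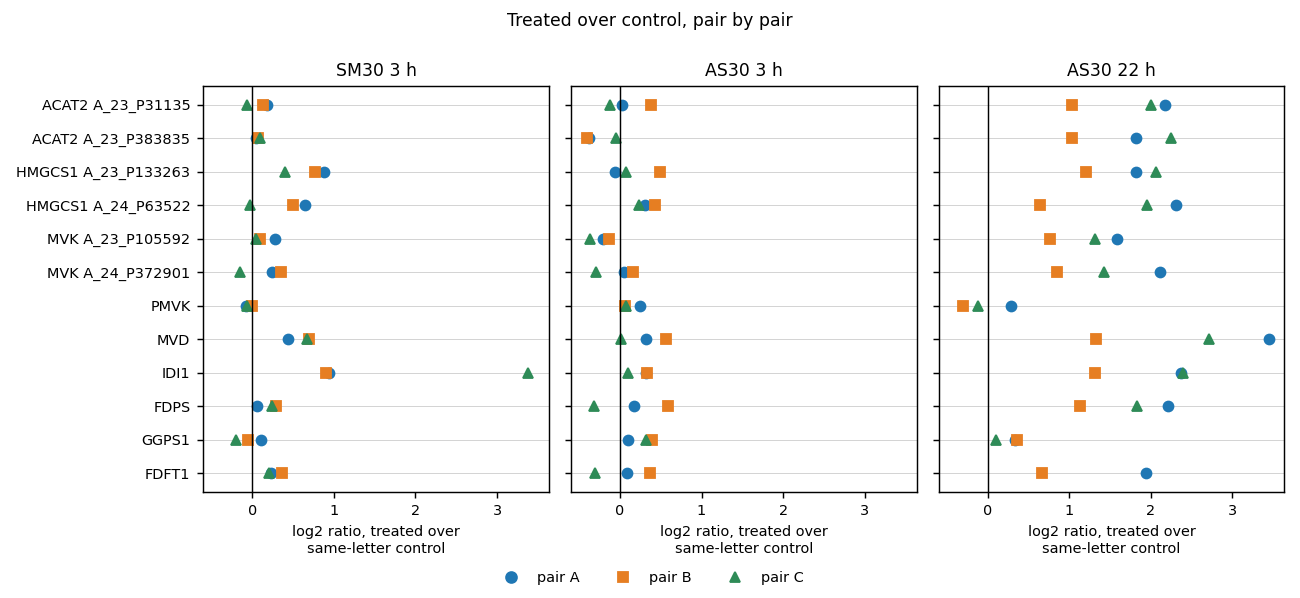
Log2 ratio of each treated array over the control array of the same letter, for the 12 probes in pathway order and the 3 exposures. At 22 h pair B gives the smallest ratio for all 10 probes of the genes other than PMVK and GGPS1, and at 3 h IDI1 in the SM30 pair C stands apart at 3.38.

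The replicates of the 22 h set differed in size more than in direction. For the 10 probes of ACAT2, HMGCS1, MVK, MVD, IDI1, FDPS and FDFT1 the log2 ratios lay between 1.59 and 3.44 in pair A, between 0.64 and 1.33 in pair B and, for the 9 measured, between 1.32 and 2.71 in pair C. Pair B was the lowest for all 10 probes. Among the 633 probes called higher at 22 h and measured in all pairs, pair B was the lowest for 65.4%, and their median ratios were 1.11, 0.68 and 0.89 in A, B and C. The share of spots scored as positive and significant was 70.9% on treated B against 76.2% and 79.3% on treated A and C, and 66.2%, 66.7% and 72.0% on controls A, B and C. Its part in the smaller ratios of pair B was not tested. On 1 slide, the treated arrays against control C gave log2 differences of 1.08 to 2.48 for the 9 probes measured there, and -0.15 and 0.14 for PMVK and GGPS1. These values use the same treated arrays as those above and 1 of their controls, with no replicate of it. All 3 treated arrays lay above all 3 controls on 10 of 11 probes measured on each, which was so for 12.8% of all probes, and below on none, against 11.1%.

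Deviations of the 8 genes measured on all 18 arrays from their group means were compared across arrays, each gene by its brighter probe. Among the 6 genes other than PMVK and GGPS1, the median correlation over 15 gene pairs was 0.78, from 0.27 to 0.93. Without the 22 h treated group it was 0.09, from -0.67 to 0.68. IDI1, with its low SM30 control C, took part in 5 of these pairs, and their median was 0.39 with all groups and -0.28 without the 22 h treated group. Over the other 10 pairs, among ACAT2, HMGCS1, MVK, MVD and FDPS, the median was 0.86 with all groups and 0.45 without that group, where ACAT2 and FDPS had 0.68 and MVK and MVD -0.07. With all groups PMVK had correlations of 0.62 to 0.72 with these 5 genes, and GGPS1 of 0.11 to 0.39. Without the 22 h treated group the ranges were -0.06 to 0.46 for PMVK and -0.06 to 0.71 for GGPS1. The median over these 10 pairs was 0.50 with all groups and 0.24 without that group. These correlations share arrays and the normalisation, and are a description.

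After the 3 h recovery none of the 12 probes passed by limma with either particle. After SM30 0 of 12 passed, against 7.49% of all probes, and 2 had an unadjusted p under 0.05 (IDI1 and 1 HMGCS1 probe), against 25.1% of all. The median log2 difference of the 12 was 0.17 and that of all probes -0.05. The treated arrays all lay above the controls on 6 of the 12, and on 19.2% of all probes, and below on none, against 23.8% of all. After AS30 0 of 12 passed, against 2.52% of all probes, and 1 (GGPS1) had an unadjusted p under 0.05, against 24.4%. The median of the 12 was 0.14, against 0.01 for all, and treated arrays lay above controls on 4 of 12, against 13.2% of all probes, and below on 2, against 10.6%. FDPS and FDFT1 gave 0.15 ± 0.22 and 0.05 ± 0.24 after AS30, and 0.20 ± 0.22 and 0.27 ± 0.24 after SM30. In the plot of levels the grey and red symbols at 3 h interleave on the other 6 probes of each particle.

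The particles were compared at the same mass and the same 3 h recovery. For 0 of 12 probes did the SM30 response differ from the AS30 response at an adjusted p of 0.05 (limma), and 1, IDI1, had an unadjusted p under 0.05. Of all probes 0.014% passed and 14.6% had an unadjusted p under 0.05. The IDI1 difference was 1.49 with a 95% interval of 0.06 to 2.92, and 0.67 without SM30 pair C, which holds the low control array. For MVD the difference of the responses was 0.30 (-0.75 to 1.35), for FDPS 0.05 (-0.67 to 0.77) and for the first ACAT2 probe -0.02 (-0.70 to 0.67), so differences of up to those bounds could not be told from 0. There was no SM30 group at 22 h.

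The AS30 response at 22 h was larger than at 3 h by a log2 value of 1.25 to 2.20 for the 10 probes of the 7 genes. PMVK gave -0.17 ± 0.18 and GGPS1 -0.01 ± 0.16. By limma 0 of 12 probes passed, with 10 at an unadjusted p under 0.05, where 0.0285% of all 28086 probes passed and 16.9% had an unadjusted p under 0.05. Without the 22 h pair B 6 of the 12 passed, and without the AS30 3 h pair C 1. The shares of all probes passing in those settings are not given, so these counts have no background. These comparisons share the 3 h and 22 h ratios with those above and are a description.

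The comparisons of untreated cells hold no treated array. Their arrays are the controls of the ratios above, which were known when the genes were chosen. They are therefore not independent of that choice and are a description too. Between untreated cells at 22 h and at 3 h in the AS30 sets 0 of 12 probes passed (limma, lowest adjusted p 0.330) and 1, PMVK, had an unadjusted p under 0.05, where 1.3% of all 28179 probes passed and 14.9% had an unadjusted p under 0.05. PMVK read 11.82, 11.84 and 11.95 at 3 h and 11.93, 12.16 and 12.22 at 22 h, a log2 difference of 0.24 (95% interval 0.0017 to 0.47). For MVD the difference was 0.28 (-0.43 to 1.00) and for FDPS 0.26 (-0.21 to 0.73). The interval for IDI1 was wider, -1.33 to 1.00, in a fit that takes 1 spread per probe over all 6 groups, SM30 control C included. The upper bounds of all 12 probes lay at or under 1.00.

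Between the untreated SM30 and AS30 sets at 3 h 0 of 12 probes passed (limma, lowest adjusted p 0.0689), and 4 had an unadjusted p under 0.05. Of all 28620 probes 26.8% passed and 39.1% had an unadjusted p under 0.05, so the 4 of 12 do not stand above the background. The SM30 controls read higher on the HMGCS1 probes, by 0.62 (95% interval 0.09 to 1.15) and 0.82 (0.14 to 1.50). They also read higher on the second ACAT2 probe, by 0.61 (0.02 to 1.19), and lower on the second MVK probe, with a difference of -0.55 (-1.01 to -0.09). The first probes of ACAT2 and MVK gave 0.31 and -0.17, with intervals that include 0. For IDI1 the difference was -0.85 (-2.02 to 0.31), and without the low control C the value was -0.02. The sets differ in slide, scan run and culture, which cannot be told apart here.

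**Figure D3:**
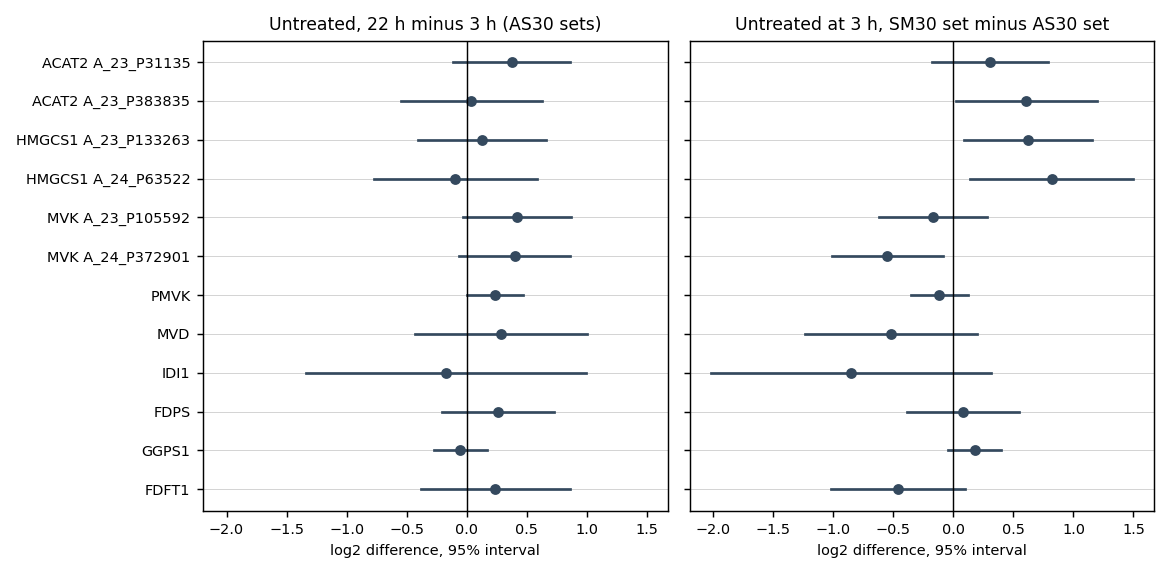
Log2 differences between untreated groups for the 12 probes, with the 95% interval of the fit of 18 arrays in 6 groups (points are the differences, lines the intervals). In the 22 h against 3 h comparison the intervals include 0 except for PMVK at 0.24, and in the comparison of sets those of HMGCS1, 1 ACAT2 probe and 1 MVK probe lie off 0.

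In order of group means, the AS30 22 h treated group was the highest of the 6 groups for 10 of the 12 probes. For HMGCS1 and IDI1 its lowest array lay under the highest array of the SM30 treated group, which came next, and for ACAT2, MVK, MVD, FDPS and FDFT1 its arrays overlapped no array of the next group. For PMVK the 22 h controls came highest and for GGPS1 the AS30 3 h treated group, each overlapping its neighbour in that order. How often such an order arises among all probes is not given here. The genes were chosen with the 22 h ratios known, so the order is a description only.

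Past squalene the route continues to cholesterol, and 11 of its enzymes were looked at by 1 probe each. At 22 h after AS30 all 11 passed as higher, with a median log2 difference of 1.45. Of all probes 3.58% passed in that contrast, or 2.54% counted as higher alone, which is the background for each list here. The largest values were those of TM7SF2, a sterol reductase, at 2.29 ± 0.25 (SE), MSMO1, a methyl oxidase, at 2.15 ± 0.34, HSD17B7 at 1.79 ± 0.33 and SC5D at 1.62 ± 0.18. In the other direction from farnesyl diphosphate, 13 genes that use isoprenyl diphosphates or process prenylated proteins were measured, among them the prenyltransferase subunits FNTA and FNTB, the ubiquinone enzymes PDSS1 and COQ2, and RCE1, ICMT and ZMPSTE24, which trim or methylate proteins after prenylation. Of these 0 passed at 22 h, and their median was -0.10. By limma 2 had an unadjusted p under 0.05 (RABGGTA at 0.54 and PDSS1 at -0.41), against 22.9% of all probes. The count was 1 with 75th-percentile scaling, with only probes well above background or with no replicate block, 2 with slide as a random block or ratios over the mean of 3 controls, and 0 in the other 15 alternatives. Of 6 isoforms and neighbouring enzymes 4 were measured, and ACSS2, which makes acetyl-CoA from acetate, passed at 2.93 ± 0.38. ACLY gave 0.42, which did not pass. Of 8 SREBP control genes 2 passed as higher, INSIG1, which holds SREBPs in the endoplasmic reticulum, at 2.13 ± 0.28 and the sterol carrier STARD4 at 1.24 ± 0.21. SREBF2 itself gave 0.64 ± 0.18 and SREBF1 -0.21 ± 0.15, and neither passed. Of the 11 sterol enzymes 0 passed with slide or scan run as a fixed block, 0 without the 22 h pair A and 3 without pair C, 5 to 7 without SM30 pair A or B or the 3 h AS30 pair A, and 7 with no filter on dim spots. ACSS2, INSIG1 and STARD4 did not pass with either fixed block or without the 22 h pair A or C. Most of these genes lie in the same pathway as those that were chosen, so these counts are a description too.

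At 3 h INSIG1 was the one gene of the 36 measured in these 4 lists to pass after SM30, at 1.43 ± 0.28, where 7.49% of all probes passed. After AS30 none of the 36 did, against 2.52% of all probes, with 8 at an unadjusted p under 0.05 by limma, against 24.4%. In untreated cells none of the 36 passed between 22 h and 3 h, against 1.3% of all probes. By limma 1 (COQ2) had an unadjusted p under 0.05, against 14.9% of all. Between the untreated sets 7 of the 36 passed, where 26.8% of all probes did. They were 4 of the 13 genes of isoprenyl use and processing and 3 of the 8 SREBP control genes, with 0 of 11 sterol enzymes and 0 of 4 isoforms and neighbouring enzymes.

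**Figure D4:**
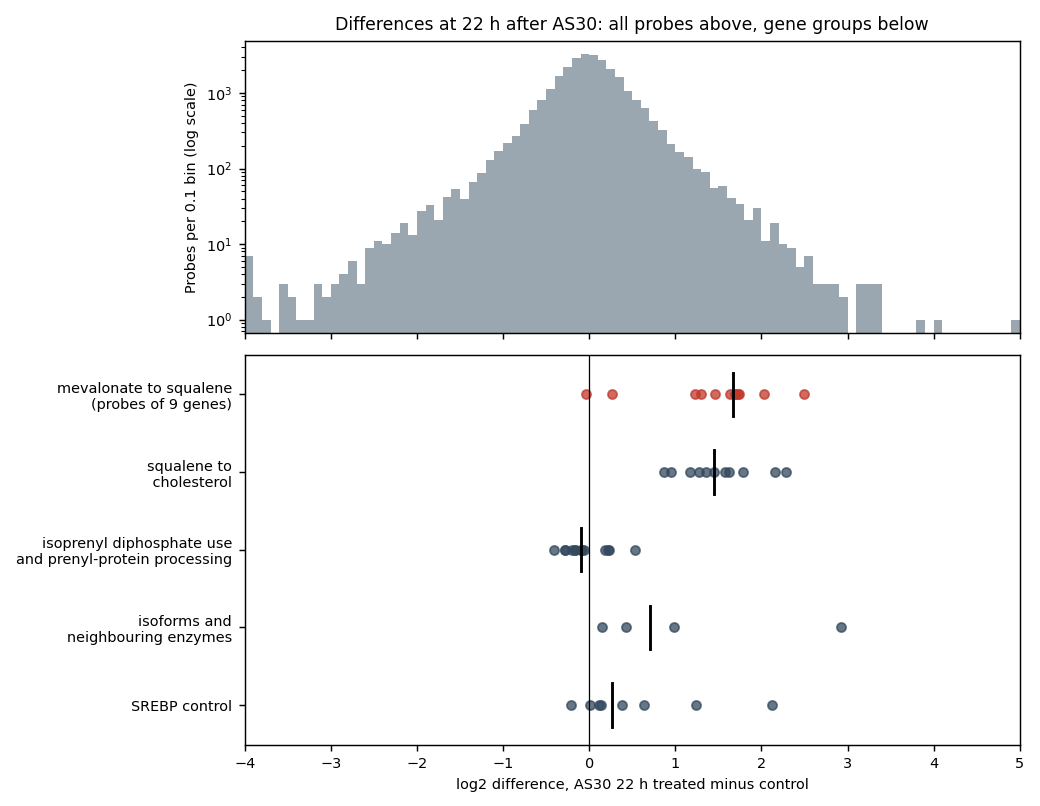
Log2 differences of AS30 22 h treated minus control, with all 28155 probes above as a histogram in bins of 0.1 (log vertical axis, end bins hold values beyond them) and the gene groups below, with 1 dot per probe and a bar at the group's median. The 12 probes lie between -0.04 and 2.49 with a median of 1.67, the genes of isoprenyl diphosphate use and prenyl-protein processing have a median of -0.10.

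The profile of the 8 genes measured on all arrays was compared with every other probe, after centring each set of 6 arrays on its mean, over the 18 arrays. The genes most like it were LSS (r = 0.98), MSMO1 (0.98), ACSS2 (0.97), CYP51A1 (0.97) and NEU1 (0.96), of 23030 probes. Among the members themselves MVD had r of 0.99 and ranked 1, FDPS 0.96, IDI1 0.82, GGPS1 0.55 and PMVK 0.17, each being part of the mean it was set against. The points share slides and the 22 h treated arrays that dominate the profile.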

How the data were processed

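RNA of 6 groups, 3 cultures each, was labelled with a single dye and read on 18 Agilent arrays. The authors deposited the output of Agilent Feature Extraction 10.5.1.1 (version per the file headers) for every array, with spot intensity on a linear scale (processed signal after background correction, mean signal and local background), and a table of intensity values after quantile normalisation. Per-sample columns not used numbered 0.

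With R 4.3.3, limma 3.58.1 and statmod 1.5.0, log2 processed signals were quantile normalised, spots not positive and significant or marked as outliers were set to missing, replicate spots were averaged, and probes over 33% missing were removed, leaving 28665 of 41000. All 12 probes of the 9 genes stayed, each with 1 spot, and none was saturated. Ratios were taken of each treated array over its same-letter control, and limma was fitted to the 9 log2 ratios in 3 classes (6 residual degrees of freedom). Untreated groups were compared in a fit of 18 arrays in 6 groups (12 residual degrees of freedom). P-values were adjusted by Benjamini-Hochberg over all probes tested, with 0.05 as threshold. An SE is that of the fit. The number of arrays limits the precision. The fits were tested on simulated data.

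All probes of the 9 genes are named. In the 4 other lists, genes stand by their brightest kept probe, and those past the threshold are named, at most 4 per list, beside some that were chosen after their values were seen. Gene symbols came from the accession for 18772 of the kept probes and otherwise from the file. The 9 genes and the lists were chosen with earlier results of these data known. Promoters came from RefSeq (GRCh38.p14), and probe positions, as the scanner files list them, are on hg18. The alternatives were 75th-percentile scaling, normexp background correction, other filters, the deposited table, no pairing, slide or scan as a block, and leaving out arrays.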

Additional observations from a re-analysis of the deposited data

Results flagged for a closer look

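In the pair-by-pair ratios, 4 comparisons had every pair of one exposure above 0 and every pair of the other below 0. The second ACAT2 probe (A_23_P383835) had a mean log2 ratio of 0.07 after SM30 at 3 h and -0.28 after AS30 at 3 h, a difference of 0.35, and 1.70 after AS30 at 22 h, a difference of 1.98 from AS30 at 3 h. The first MVK probe (A_23_P105592) had means of 0.14, -0.24 and 1.22 for the same exposures, and differences of 0.37 and 1.46. None of the 4 passed an adjusted p of 0.05 in limma, and both differences at 22 h had an unadjusted p under 0.05. The other probe of each gene did not show the split at 3 h.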

How the results depend on the processing

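The direction of the 22 h difference held for the 10 probes of ACAT2, HMGCS1, MVK, MVD, IDI1, FDPS and FDFT1 in all 20 alternatives, between 0.66 and 3.08 on the log2 scale. The count of probes past the threshold, 9 of 12 there, was 8 to 11 under the other scaling, background, filter, table, pairing and random-block settings, 0 with slide and 0 with scan run as a fixed block, and 0 to 9 when a pair was left out, 0 without pair A and 2 without pair C. Scan run as a block was chosen after seeing the data. After SM30 the count of 0 became 1 with 75th-percentile scaling, 2 with normexp, 2 with only probes well above background on all arrays, 1 with slide as a random block and 2 with ratios over the mean of 3 controls, and 0 to 1 when a pair was left out, 1 without the AS30 22 h pair B. After AS30 at 3 h it became 1, and for SM30 minus AS30 2, with ratios over the mean of 3 controls. In those ratios the control spread is left out, by construction. For AS30 at 22 h minus 3 h the count of 0 became 7 with slide as a random block, 10 over the mean of 3 controls, and 0 to 6 when a pair was left out. Between the untreated sets it became 2 with 75th-percentile scaling and 3 with slide as a random block, and 0 when a control was left out. Between untreated 22 h and 3 h it was 0 in all 16 alternatives. The share of all probes passing in each alternative setting is not given in this report, so nothing is read from these counts.

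With no replicate block the 22 h count was 10 and the others stayed at 0. Same-letter arrays deviated together weakly, with r from -0.09 to 0.48 over 9 pairs and above 0.1 in 4. These values do not settle whether arrays of the same letter came from matched cultures. With the replicate block between untreated 22 h and 3 h the count was 0. No paired analysis was made for the untreated SM30 and AS30 sets. Both carry the letters A, B and C, and the labels do not say whether a letter means matched cultures across sets. Slide as a fixed block could not be fitted there.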
